A study of Mus musculus with 6 samples.

Results

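The lung lineage transcription factors are the DNA-binding regulators, and 1 DNA-binding-deficient cofactor, that build and maintain the airway and alveolar epithelium. Here 10 of them were taken by gene symbol from the 22477 symbols of the deposited count table: Nkx2-1, Foxa1, Foxa2, Gata6, Foxp1, Foxp2, Foxj1, Etv5, Hopx and Cebpa. All 10 were in the table and all 10 passed the filter on low counts. RNA had been sequenced from 4 lung tumors (tumor 3, 4, 5 and 6) and 2 samples of normal lung (normal 1 and 2), each from its own mouse of the genotype Rb1/Trp53/MycT58A. In this small cell lung cancer model (RPM), Cre deletes both floxed alleles of Rb1 (Rb1 fl/fl) and of Trp53 (p53 fl/fl) and turns on a stabilized Myc (MycT58A behind a lox-stop-lox cassette, lsl/lsl). The labels list Ad5CGRP-Cre, an adenovirus that expresses Cre from the CGRP promoter of neuroendocrine cells, for the normal samples as well as the tumors, with instillation at 8 weeks of age, and give no drug treatment for any of the 6 libraries. The age at which tissue was taken is not given in the sources used here.

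Nkx2-1 is the homeodomain factor that first marks the lung field in the foregut and later drives surfactant genes. Foxa1 and Foxa2 are pioneer forkhead factors that open chromatin in foregut epithelium, and Gata6 is a zinc finger factor of distal lung epithelium that is also used by other cells. Foxj1 switches on the genes of motile cilia, Etv5 is an ETS factor that answers to fibroblast growth factor (FGF) signaling in alveolar type 2 cells, Cebpa acts in alveolar type 2 cells and in myeloid cells, and Hopx, a small homeodomain protein that does not bind DNA, marks alveolar type 1 cells. Foxp1 and Foxp2 are forkhead repressors of the airway and alveolar epithelium, and Foxp1 is also made in vessel and blood cells. Nkx2-1, Foxa1 and Foxa2 are known from pulmonary neuroendocrine cells too.

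Total counts per library were 91049413 to 99122494 in normal lung and 54735438 to 70817440 in the tumors. Levels are given as CPM, the counts of a gene scaled to the same library total, with library sizes from the TMM method. Genes of normal lung cells were present in the normal libraries and low in the tumors, where 21 of 21 listed alveolar type 2 genes, 18 of 19 alveolar type 1 genes and 15 of 15 endothelial genes were lower, while 17 of 18 neuroendocrine genes were higher. Club cell genes (12 of 16), smooth muscle genes (9 of 10) and lymphoid genes (12 of 14) were also mostly lower. Pieces of tissue were sequenced, so fewer cells of a type and less RNA per cell cannot be told apart. The labels place all libraries in 1 batch.

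The lung lineage factors split into 5 that fell in every tumor and 5 that did not pass the test. Of all genes tested, 39.8% had every tumor below both normal libraries, so such separation was common. Hopx, Foxj1, Gata6, Etv5 and Cebpa fell 9.36-fold to 37.5-fold, whereas Nkx2-1, Foxa1, Foxa2, Foxp1 and Foxp2 stayed within 2.17-fold of normal lung on average. In the same test (edgeR, quasi-likelihood, p-values adjusted over 18027 genes, threshold 0.05) 63.9% of all genes were called, 31.3% higher and 32.6% lower, so 5 of 10 called is near the share of all genes, while all 5 calls were in 1 direction. The median log2 fold change of the 10 was -1.72, against 0.02 for all genes tested. No factor lay near that median, which falls in the gap between Foxp1 (-0.22) and Cebpa (-3.23). All 5 that fell kept their call under all 14 alternatives, which changed the scaling, the filter or the test or left out 1 library. Without tumor 3 there were 8 calls, because Foxa1, Foxa2 and Foxp2 then passed as higher.

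**Figure D1:**
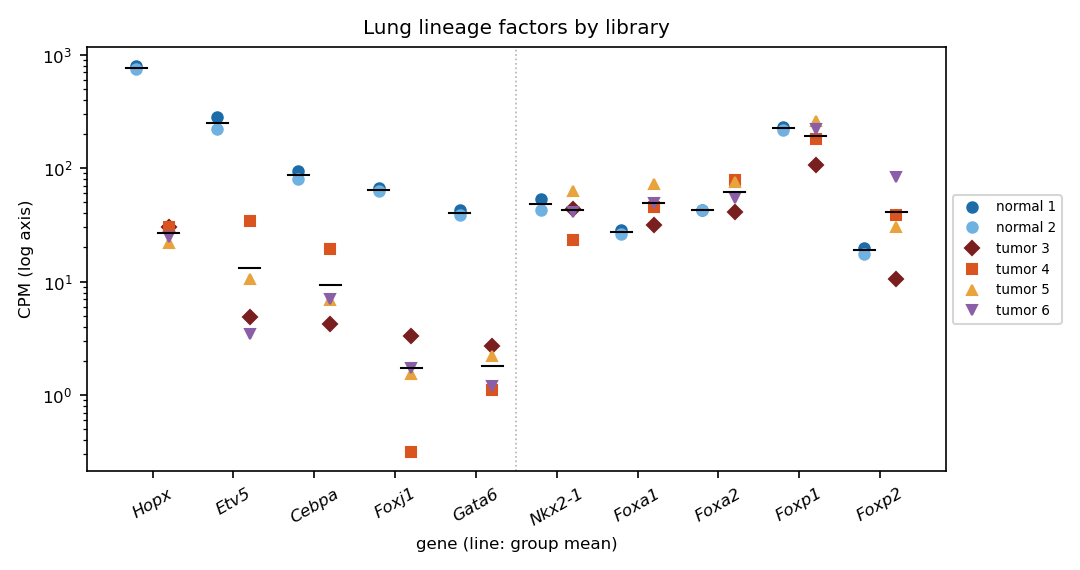
Level of each lung lineage factor in CPM (log axis) in the 2 normal and 4 tumor libraries, with a line at each group mean. Left of the dotted line every tumor lies below both normal libraries, and right of it only Foxa1 has groups that do not overlap.

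Hopx had the highest level of the 10 per exon length in normal lung, and its tumors varied least. It stood at 788 and 742 CPM in normal 1 and 2 and at 30.2, 30.3, 22.1 and 24.8 CPM in tumors 3 to 6. The tumors differed from each other by at most 1.38-fold, and all lay far below both normal libraries. Its log2 fold change was -4.83 ± 0.19 (SE, n = 2 and 4; edgeR, adjusted p = 2.46e-05), a 28.5-fold decrease with a 95% interval of -5.28 to -4.38. Hopx shares 412 exon bases with the antisense gene Hopxos in the GENCODE GRCm38 models. Since the strand setting of the counts is not given, reads of the pair cannot be told apart.

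Foxj1, the regulator of motile ciliogenesis, was at 66.7 and 62.5 CPM in normal lung and at 3.28, 0.314, 1.54 and 1.74 CPM in tumors 3 to 6. Its log2 fold change of -5.23 ± 0.73 (adjusted p = 0.00106) was the lowest of the 10. Tumor 4, with 16 counts of Foxj1, lay well below the other 3 tumors, and the spread between tumors was 10.4-fold.

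Gata6 was at 42.3 and 38.3 CPM in normal lung and at 2.73, 1.10, 2.19 and 1.21 CPM in tumors 3 to 6. Every tumor was lower than both normal libraries, by a log2 fold change of -4.48 ± 0.41 (adjusted p = 0.000205), or 22.2-fold. Gata6 shares 93 exon bases with 1010001N08Rik on the other strand in GRCm38. That neighbor had its own row, at 1.86 and 1.88 CPM in normal lung and at most 0.417 CPM in a tumor, and it too was lower in every tumor than in both normal libraries.

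Etv5 was at 281 and 222 CPM in normal lung and at 4.89, 33.9, 10.6 and 3.47 CPM in tumors 3 to 6. The groups did not overlap, but tumor 4 held 9.75 times the level of tumor 6. On the log2 scale the change was -4.25 ± 0.87 (adjusted p = 0.00533), and without tumor 4 it was -5.31. Cebpa was also highest, among tumors, in tumor 4, with 94.5 and 80.7 CPM in normal lung and 4.23, 19.4, 6.84 and 7.06 CPM in tumors 3 to 6. Its log2 fold change was -3.23 ± 0.56 (adjusted p = 0.00262), or -3.85 without tumor 4. Cebpa was the least reduced of the 5. An antisense gene, Gm45091, shares 51 exon bases with Cebpa in GRCm38 and has no row in the count table.

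The promoters of Hopx, Etv5 and Cebpa, which fell, and of Foxa1, which had the smallest adjusted p of those that did not pass, are shown so that the factors' own start regions can be read beside their levels. Each window runs from 250 bases before the RefSeq transcription start to 50 after it, 5′ to 3′ on the gene's strand, on GRCm38.p6, a build other than the mm9 of the counts. The positions are chr5:77115074-77115373 (minus strand) for Hopx, chr16:22439521-22439820 (minus strand) for Etv5, chr7:35119043-35119342 (plus strand) for Cebpa and chr12:57546062-57546361 (minus strand) for Foxa1. Capitals mark exact matches, on either strand, to 9 motifs: the forkhead motif TGTTTAC and its variant spelled TGTTTGC, the Nkx2-1 motif spelled CTCAAG, the C/EBP motif spelled TTGCNNAA, the ETS motif spelled CCGGAAG, the GATA motif spelled AGATAA, the E-box spelled CACGTG, the promoter element known as CCAAT, and the TATA box spelled TATAAA. Overlapping matches were allowed.
Hopx: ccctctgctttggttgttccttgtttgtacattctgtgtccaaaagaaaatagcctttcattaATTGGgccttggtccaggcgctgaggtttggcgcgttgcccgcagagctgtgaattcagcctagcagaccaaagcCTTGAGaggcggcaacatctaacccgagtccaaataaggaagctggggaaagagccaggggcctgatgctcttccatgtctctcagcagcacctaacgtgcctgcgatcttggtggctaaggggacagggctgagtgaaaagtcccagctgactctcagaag
Etv5: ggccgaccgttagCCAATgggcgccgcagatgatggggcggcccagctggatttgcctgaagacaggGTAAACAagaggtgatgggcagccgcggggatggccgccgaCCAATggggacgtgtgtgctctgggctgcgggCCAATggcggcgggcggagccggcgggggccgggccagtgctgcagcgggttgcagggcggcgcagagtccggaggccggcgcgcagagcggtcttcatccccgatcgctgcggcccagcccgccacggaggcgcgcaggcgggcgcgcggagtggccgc
Cebpa: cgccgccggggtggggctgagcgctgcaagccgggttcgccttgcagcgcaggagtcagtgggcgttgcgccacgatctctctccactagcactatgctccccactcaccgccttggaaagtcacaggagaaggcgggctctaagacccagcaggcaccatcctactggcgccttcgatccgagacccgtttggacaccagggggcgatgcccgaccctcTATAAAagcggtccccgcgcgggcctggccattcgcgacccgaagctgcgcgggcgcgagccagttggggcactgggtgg
Foxa1: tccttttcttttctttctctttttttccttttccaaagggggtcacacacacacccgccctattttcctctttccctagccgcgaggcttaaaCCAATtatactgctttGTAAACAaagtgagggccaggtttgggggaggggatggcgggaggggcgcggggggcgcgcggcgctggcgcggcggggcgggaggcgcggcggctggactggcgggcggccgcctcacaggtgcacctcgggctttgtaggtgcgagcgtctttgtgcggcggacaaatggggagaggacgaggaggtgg

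A forkhead TGTTTAC match, read on the opposite strand as GTAAACA, lay 183 bases before the start of Etv5 and 141 bases before that of Foxa1. The RefSeq start used for Etv5 is 149 bases from the nearest principal GENCODE start, against at most 10 for the other member windows. The TGTTTAC motif was in 3.7% of all 32544 windows searched and in 2 of the 7 member windows searched. CCAAT matches were in 4 of the 7 (Hopx, Etv5, Foxa1 and Foxa2), against 37.4% of all windows, and Etv5 had 3 of them. The Hopx window held 1 Nkx2-1 motif, 112 bases before the start, as 15.7% of windows do, and the Cebpa window a TATAAA match that begins 30 bases before the start, as 13.6% do. The Nkx2-1 window had no match to any of the 9 motifs, and the Foxp1 window had 1, to the C/EBP motif (10.8% of windows). The E-box, ETS, GATA and TGTTTGC motifs were in 7.2%, 8.9%, 11.2% and 5.1% of all windows and in none of the 7. The GC content of the windows was 74.0% for Etv5, 67.3% for Cebpa, 62.3% for Foxa1 and 53.0% for Hopx, so the 3 promoters of genes that fell did not share a base composition. A match is a run of letters only, and no binding was measured.

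Nkx2-1 did not pass the test. It was at 53.5 and 42.9 CPM in normal lung and at 43.8, 23.1, 62.1 and 41.4 CPM in tumors 3 to 6. Tumor 5 was above both normal libraries, tumor 3 lay between them, and tumors 4 and 6 were below them. The log2 fold change was -0.18 ± 0.36 (adjusted p = 0.688), with a 95% interval of -1.04 to 0.69, and it changed sign without tumor 4 (0.03). The interval leaves room for anything from a 0.485-fold to a 1.61-fold level.

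Genes of alveolar type 2 cells, some of which Nkx2-1 is known to activate, fell. All 21 listed, none of them among the 10 factors, were lower (median log2 fold change -4.77, against 0.02 for all genes). Abca3, the surfactant lipid transporter, went from 730 ± 23.9 (SD, n = 2) to 51.9 ± 12.0 CPM (n = 4), a 14.1-fold decrease. Lpcat1, an enzyme of surfactant phospholipid synthesis, fell 5.84-fold and the lysozyme gene Lyz1 76.0-fold. Sftpc, the surfactant protein C gene, named here after its values were seen, was at 10100 and 9747 CPM in normal lung and at 340, 260, 400 and 4.79 CPM in tumors 3 to 6. Tumor 6 was thus far below the other tumors for Sftpc, while its Nkx2-1 level of 41.4 CPM was close to that of tumor 3. The mean log2 CPM of the alveolar type 2 list was likewise 1.58 in tumor 6 and 4.27 to 4.82 in the other tumors. The alveolar type 1 mean was also lowest in tumor 6, at 3.24 against 4.56 to 4.84 in the others. By summed CPM, however, tumor 6 was not lowest for the type 1 genes, at 827 against 687 to 1114 in the others. Endothelial (2.47, against 2.83 to 2.99) and myeloid (2.29, against 2.76 to 3.52) means were lowest in tumor 6 by smaller gaps. Club cell, fibroblast, smooth muscle and lymphoid means were not lowest there.

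Of the other Nkx2 genes in the list, 5 were in the table and none passed the filter on low counts. Together they reached no more than 0.374 CPM in a library. Under 6 alternatives that let it be tested, 1 of them, Nkx2-2, was called higher, from no count in normal lung to 0.0912 to 0.157 CPM in tumors.

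**Figure D2:**
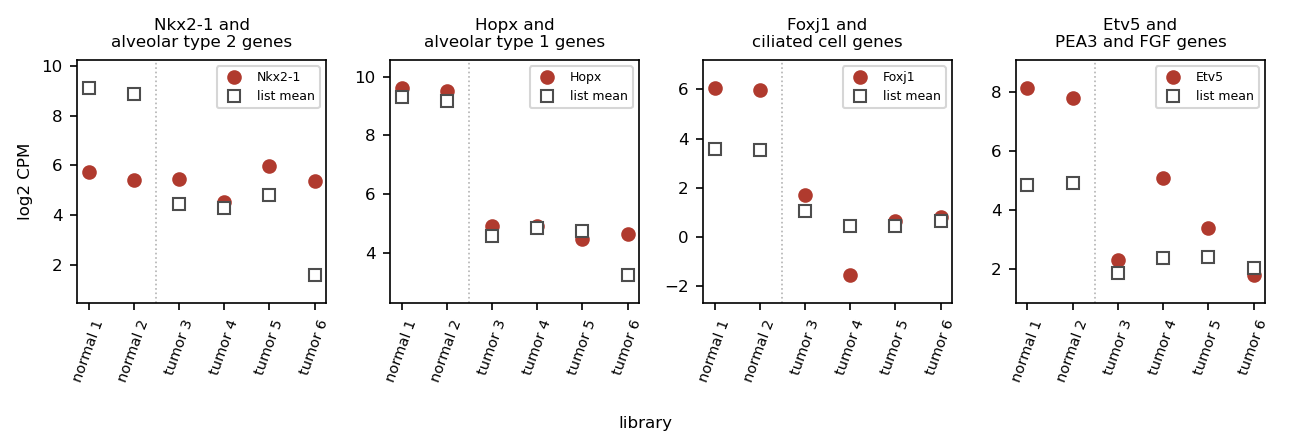
Log2 CPM of 4 lineage factors (filled circles) beside the mean log2 CPM of a list of genes of the matching cell type or pathway (open squares) in each library. Heights of a factor and its list are not corrected for gene length and are to be compared across libraries only. Nkx2-1 overlaps between the groups, with tumor 4 lowest, while the alveolar type 2 mean falls from 9.12 and 8.88 to at most 4.82, and Hopx, Foxj1 and Etv5 fall as their lists do.

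Foxa1 was the only factor that was higher in every tumor than in both normal libraries. It was at 28.6 and 26.4 CPM in normal lung and at 31.4, 45.0, 72.0 and 48.8 CPM in tumors 3 to 6. Tumor 3 exceeded normal 1 by little, and tumor 5 was highest. The increase of 0.84 on the log2 scale ± 0.33 missed the threshold (adjusted p = 0.0586). It passed under 6 of the 14 alternatives: with RLE factors (adjusted p = 0.0463), upper quartile scaling (0.0345), the stricter filter (0.0398), DESeq2 (0.0197), small non-coding and histone rows removed (0.0415) or without tumor 3 (0.0181). Across all genes, 77.3% had groups that did not overlap, 37.4% with every tumor above both normal libraries and 39.8% with every tumor below, so separation of 2 from 4 libraries was common.

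Foxa2 was at 42.5 and 42.8 CPM in normal lung and at 40.8, 77.8, 75.5 and 54.3 CPM in tumors 3 to 6. Tumor 3 was just below both normal libraries and the other 3 were above. The log2 fold change of 0.54 ± 0.28 did not pass (adjusted p = 0.137, 95% interval -0.14 to 1.22), but it did without tumor 3 (0.70, adjusted p = 0.0283). Foxa3, the third member of the subfamily, was at no more than 0.432 CPM in any library. Its log2 fold change of -1.70 ± 0.59 passed at adjusted p = 0.0404 and lost its call under 9 alternatives (adjusted p = 0.0557 to 0.205).

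Foxp1 was at 107, 180, 260 and 221 CPM in tumors 3 to 6 against 231 and 217 in normal lung. Tumor 3 was lowest, tumor 5 was above both normal libraries, and the log2 fold change of -0.22 ± 0.33 did not pass (adjusted p = 0.578, 95% interval -1.02 to 0.57). Foxp1 shares 300 exon bases with Gm20696 and 135 with Gm49348, both on its own strand in GRCm38. Neither has a row in the count table. Foxp2 was at 19.9 and 17.6 CPM in normal lung and at 10.6, 38.9, 30.02 and 83.5 CPM in tumors 3 to 6. Tumor 3 was below and the other 3 above both normal libraries, and tumor 6 held 7.86 times the level of tumor 3. The log2 fold change was 1.12 ± 0.73 (adjusted p = 0.216), and 1.44 without tumor 3 (adjusted p = 0.0473). Of the other Foxp genes, Foxp4 did not pass (-0.05 ± 0.31, and 0.07 with upper quartile scaling) and Foxp3, of regulatory T cells, was higher (1.00 ± 0.22). Foxp3 overlaps Ccdc22, and without a known strand setting reads of the pair cannot be told apart. The Foxp3 call was lost without normal 1 (adjusted p = 0.0746) or normal 2 (0.0628).

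Ratios between factors within a library do not depend on how libraries are scaled. The log2 ratio of Gata6 to Foxa2 counts was -0.01 and -0.16 in normal 1 and 2 and -3.90, -6.13, -5.10 and -5.48 in tumors 3 to 6. Counts of the pair, not corrected for length, were therefore similar in normal lung, and Gata6 had at most 0.067 times the counts of Foxa2 in a tumor. The difference of -5.07 gave p = 0.0667 in an exact two-sided permutation test, the smallest that 15 splits of 2 against 4 libraries allow, and 0.267 after adjustment over the 4 ratios tested. The Foxp1 to Foxp2 ratio was lower in each tumor (3.33, 2.21, 3.11 and 1.4) than in normal lung (3.53 and 3.63), by 1.06 on average (exact permutation p = 0.133, adjusted 0.267). The Foxa1 to Foxa2 ratio was -0.57 and -0.70 in normal lung and -0.38, -0.79, -0.07 and -0.15 in tumors, with overlapping groups (difference 0.29, exact permutation p = 0.333, adjusted 0.444). The Foxp1 to Foxp4 ratio overlapped as well (difference -0.19, exact permutation p = 0.8). No ratio could pass 0.05 in this design.

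**Figure D3:**
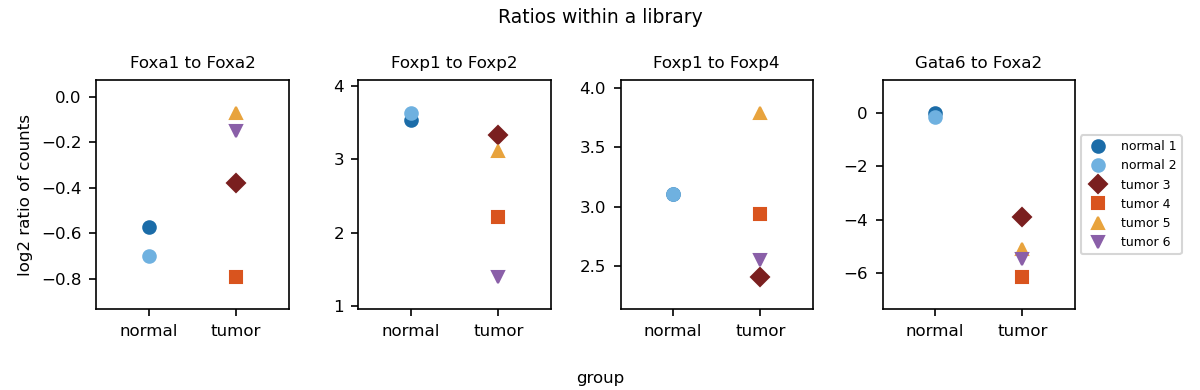
Log2 ratio of the counts of 2 factors within each library, by group, with a separate scale for each panel. The 4 tumors lie 3.90 to 6.13 below a ratio of 1 for Gata6 to Foxa2, while the groups overlap for Foxa1 to Foxa2 and for Foxp1 to Foxp4.

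The order of the factors by level per length differed between normal lung and tumors. In CPM per kilobase of exon, normal lung had Hopx first (505 ± 21.7), then Etv5 (61.3 ± 10.2), Cebpa (33.2 ± 3.69) and Foxj1 (24.6 ± 1.14). Foxa2 (18.0 ± 0.10), Nkx2-1 (16.9 ± 2.64) and Foxp1 (16.3 ± 0.69) followed with overlapping ranges, and then Foxa1 (8.27 ± 0.46), Gata6 (6.19 ± 0.43) and Foxp2 (1.15 ± 0.10). In tumors the first 5 were Foxa2 (26.2 ± 7.46), Hopx (17.7 ± 2.70), Nkx2-1 (15.0 ± 5.63), Foxa1 (14.8 ± 5.08) and Foxp1 (14.0 ± 4.75), each overlapping with the next. Cebpa (3.56 ± 2.58), Etv5 (3.22 ± 3.44), Foxp2 (2.49 ± 1.89), Foxj1 (0.654 ± 0.464) and Gata6 (0.278 ± 0.121) followed, again each overlapping with the next. The ranges of Foxp1 and Cebpa did not overlap, but Etv5 in tumor 4 (8.25) was above Foxp1 in tumor 3 (7.80) and Nkx2-1 in tumor 4 (8.11). Hopx therefore still ranked second in the tumors per length in spite of its decrease. Lengths were the union of GENCODE exons on GRCm38, so rare long isoforms lower the values of Foxp1 and Foxp2.

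Relatives in the same subfamilies showed which losses were shared. All 5 other Gata genes and the cofactor genes Zfpm1 and Zfpm2 were lower (7 of 7, median -4.56). Gata2, of vessel and blood cells, went from 53.5 ± 7.60 to 1.10 ± 0.609 CPM (48.4-fold), Gata3 fell 103-fold, Gata5 47.9-fold and Gata4 18.3-fold. Zfpm2 lost its call when any 1 library other than tumor 4 was left out (adjusted p = 0.0534 to 0.126). Zfpm1, Gata2 and Gata3 did not lose theirs under any alternative. The lung has several sources of Gata genes besides epithelium, and vessel genes were at 5532 to 6082 summed CPM in normal lung and 107 to 224 in tumors for the 15 listed, with all 15 lower. The part of vessel cells in the Gata6 decrease was not tested.

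Among the C/EBP relatives of Cebpa, Cebpb and Cebpd, which respond to inflammatory signals, fell 6.14-fold and 5.98-fold, from 23.2 ± 3.19 to 3.78 ± 1.88 and from 24.2 ± 4.10 to 4.04 ± 0.571 CPM. Cebpg did not pass (-0.35 ± 0.19, adjusted p = 0.158). Cebpz, listed here by its name only, was higher (0.94 ± 0.20), a call that was lost without normal 1 (0.88). Cebpe was too low to be tested. Of 17 genes of myeloid cells, which also make Cebpa, 11 fell, among them the receptor genes Csf1r and Csf3r, 5 did not pass and 1 rose. The one that rose was the lipid carrier gene Fabp4 (1.67 ± 0.60, adjusted p = 0.0442), and it did not pass with limma voom or without normal 1, normal 2, tumor 3 or tumor 6 (adjusted p = 0.0512 to 0.230). The summed level of the 17 went from 5524 to 6019 CPM in normal lung to 340 to 1258 in tumors. The part of myeloid cells in the Cebpa decrease was not tested.

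The PEA3 subfamily of Etv5 diverged. Etv4, like Etv5 an FGF-responsive factor, was at 0.193 and 0.410 CPM in normal lung and at 0.998, 14.3, 2.77 and 3.28 CPM in tumors 3 to 6. Its log2 fold change of 4.14 ± 1.26 passed (adjusted p = 0.0254), opposite in sign to Etv5, but it no longer passed under limma voom (3.5) or when normal 1 (3.68) or normal 2 (4.76) was left out, and the value was 2.96 without tumor 4. Etv1 was at 16.4 and 14.9 CPM in normal lung and at 2.24, 36.4, 94.3 and 2.36 CPM in tumors 3 to 6, so tumors 4 and 5 were above and tumors 3 and 6 below normal lung (1.11 ± 1.49, adjusted p = 0.537). It changed sign with limma voom (-0.42) and without tumor 5 (-0.19). Tumor 4 was highest for both Etv5 and Etv4, and tumor 5 for Etv1.

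Genes linked to FGF signaling, to which Etv5 answers, were mostly lower. The list also holds PEA3 factors and feedback genes, so not all of it acts upstream of Etv5. Of the 19 genes in the list of PEA3 factors and FGF signaling, 15 fell, 1 rose (Etv4) and 3 did not pass (median -2.69). Fgf10 and Fgf7, ligands made by lung mesenchyme, fell 64.1-fold and 36.8-fold to 0.235 ± 0.110 and 0.635 ± 0.145 CPM. Il17rd, a feedback inhibitor of FGF signaling, fell 29.4-fold. Fibroblast genes as a whole were lower too (10 of 14), and the part of fewer mesenchymal cells in the fall of the ligands was not tested.

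**Figure D4:**
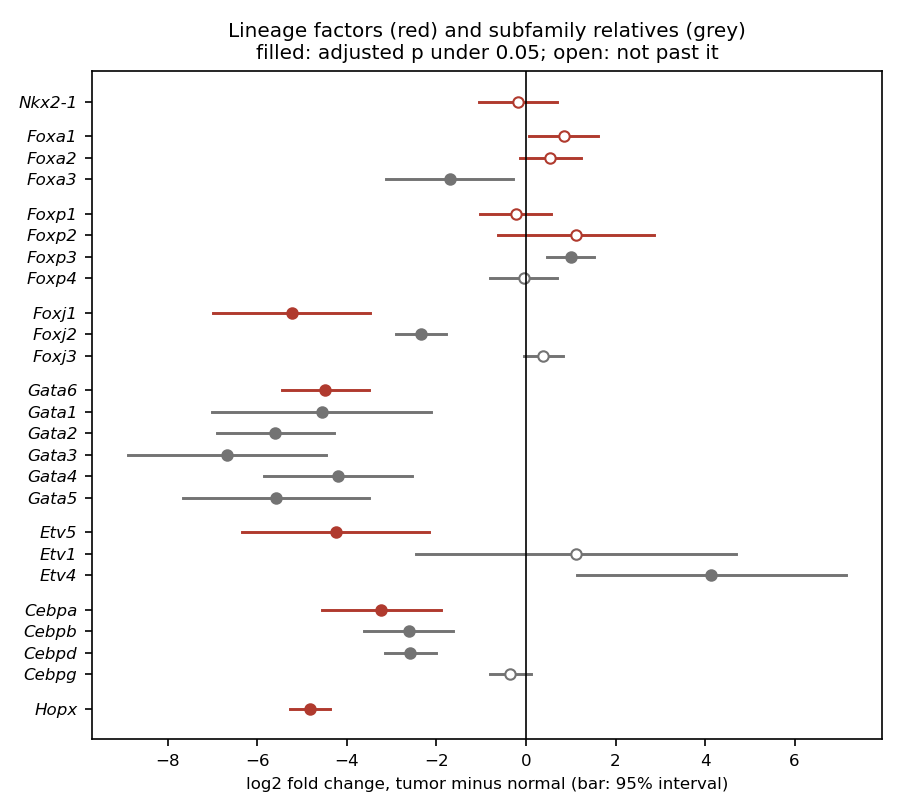
Log2 fold change (tumor minus normal) with its 95% interval for the 10 lung lineage factors (red) and relatives of the same subfamily (grey), with filled circles for adjusted p under 0.05. All Gata genes lie below 0, whereas Etv4 and Etv5 lie on opposite sides of it.

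Genes of motile cilia, many of which Foxj1 is known to control, were mostly lower as Foxj1 was. Of 32 listed genes, 23 were lower, 3 higher and 6 did not pass (median -3.17). Dnah5 and Dnah9, dynein heavy chains of the ciliary arms, fell 16.9-fold and 21.5-fold, and Tekt4, a tektin of the axoneme, 27.0-fold. The 3 that rose were transcription factors: Rfx3, a partner of Foxj1, from 34.8 ± 2.52 to 94.5 ± 32.9 CPM, Myb, an early regulator of multiciliated cells that is also used by dividing cells, from 20.5 ± 0.97 to 57.7 ± 25.1 CPM, and Rfx4, at no more than 0.329 CPM. None of the 3 passed without normal 1 or without normal 2 (adjusted p = 0.057 to 0.223). In the same subfamily Foxj2 fell 5.11-fold and Foxj3 did not pass (0.39 ± 0.18, adjusted p = 0.0950), although Foxj3 did with upper quartile scaling (0.51), the stricter filter (0.48), small non-coding and histone rows removed (0.48) or without tumor 3 (0.49).

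Hopx fell along with the other alveolar type 1 genes, of which 18 of 19 were lower and 1 did not pass (median -5.42). Clic5 and Emp2, which encode a chloride channel-like protein and a membrane protein, fell 87.2-fold and 54.4-fold. Hopx is known to act by recruiting histone deacetylases, and the Foxp proteins by binding the NuRD repressor complex. The list of 16 partner genes also holds Srf, Ctbp1, Ctbp2 and Epc1, which are not of these 2 kinds. Of the 16, 8 were higher, among them Ctbp1 (0.39), 8 did not pass and none was lower (median 0.48). Of all genes, 31.3% were higher. Those that rose included Hdac2 (72.6 ± 0.606 to 183 ± 10.6 CPM), Hdac3 (36.6 ± 0.981 to 95.5 ± 5.78 CPM) and the histone-binding gene Rbbp4 (148 ± 1.13 to 503 ± 91.2 CPM). The Ctbp1 call was lost with total counts (0.38), without a filter (0.35), or without tumor 3 (0.40) or tumor 5 (0.36). The Hdac1 call (0.69) was lost without tumor 3 (0.68). The summed level of the 16 was 1409 and 1417 CPM in normal lung and 2351 to 2441 CPM in tumors.

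Other transcription factors of lung epithelium were mixed, as the 10 were. Of 24 listed, 23 were tested, of which 10 fell (median -1.18), where 32.6% of all genes were lower. Irx1 and Irx3, homeobox genes of distal epithelium, fell 8.40-fold and 6.14-fold, and Srebf1, of lipid synthesis, fell 2.94-fold. In contrast, factors of lung mesenchyme and vessels fell in 17 of 18 cases (median -4.82), among them Epas1 (121-fold), Sox7 (74.0-fold) and Tbx3 (46.0-fold). The remaining gene, Twist1, a mesenchymal factor, was called higher (adjusted p = 0.00367), with no count in either normal library and 0.157 to 0.598 CPM in tumors, and was left untested by the stricter filter. In the forkhead family outside the 10, 25 of 32 genes in the table were tested, and 12 fell, 4 rose and 9 did not pass (median -0.71). Foxf1, of lung mesenchyme and vessels, was 88.0-fold lower and Foxm1, of dividing cells, 10.9-fold higher. The 4 that rose were 2 when either normal library was left out.

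Loss of Nkx2-1 in lung tumors is known to expose gut genes, so those were examined although Nkx2-1 itself did not pass the test. Of 19 listed gut and liver identity genes, 17 were in the table and 11 were tested. In the main edgeR fit none was higher, 4 were lower and 7 missed the threshold, where 32.6% of all genes were lower. Summed levels were 10.2 and 14.0 CPM in normal lung and 6.45 to 9.48 CPM in tumors. Hnf4a, a regulator of liver and gut genes, was at most 0.104 CPM in a tumor. With the stricter filter or DESeq2, or without tumor 6, 1 gene was higher, and without normal 1 or with the stricter filter 2 were lower.

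The 4 tumors differed among themselves for the lineage factors, and no single tumor was lowest or highest for all. Tumor 3 was the lowest for Foxa1, Foxa2, Foxp1, Foxp2 and Cebpa, and the highest for Foxj1 and Gata6. Tumor 4 was the highest for Foxa2, Hopx, Etv5 and Cebpa, and the lowest for Nkx2-1, Gata6 and Foxj1. Tumor 5 was the highest for Nkx2-1, Foxa1 and Foxp1 and the lowest for Hopx. Tumor 6 was the highest for Foxp2 and the lowest for Etv5. General epithelial genes also set tumor 4 apart: their summed level was 1484 CPM there, near the 1707 and 1779 CPM of normal lung, against 80.1 to 146 in the other tumors. Epcam, named after its values were seen, was at 234 CPM in tumor 4 and at 8.61, 7.23 and 2.17 CPM in tumors 3, 5 and 6. Of the 15 general epithelial genes 3 were lower, and without tumor 4 all 15 were, while Foxa1 (0.89), Foxa2 (0.42) and Nkx2-1 (0.03) still did not pass. The alveolar type 2, alveolar type 1 and club cell lists were not raised in tumor 4 to the same degree, with summed levels of 1249, 1114 and 509 CPM against 705 to 1706, 687 to 827 and 288 to 605 CPM in the other tumors.

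For each factor the tested genes whose profile over the 6 libraries lay nearest were found, as the smallest distance between log2 CPM values centered on each gene's own mean. This describes likeness over 6 libraries, 2 of which differ from the other 4 for most genes, and has no test. The nearest to Foxj1 was Rsph4a, of the ciliary radial spoke, at a distance of 0.322, followed by Cdhr3, of ciliated cells, at 0.746. The nearest to Gata6 were Gbp7 (0.246) and Il33 (0.315), to Etv5 Cped1 (0.358) and Limch1 (0.462), to Hopx Fam129a (0.316) and Gstm2 (0.345), and to Cebpa Fam84b (0.313) and Dnaja4 (0.419). Nkx2-1 was closest to Rpgrip1l (0.174) and Aak1 (0.250), Foxa1 to D630003M21Rik (0.278) and Fam217b (0.376), Foxa2 to Hdac11 (0.176) and E2f2 (0.289), and Foxp1 to Garem (0.248) and Srgap2 (0.271). Foxp2 had no close match, with Rgs11 at 0.910 and Col5a3 at 0.956. Rsph4a is itself in the ciliated cell list, Il33 in the alveolar type 2 list and Limch1 in the fibroblast list.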

How the data were processed

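Poly(A)-selected RNA of flash-frozen lung tissue was sequenced from 2 normal and 4 tumor libraries, per the labels' protocols. The deposited values are raw gene counts that the authors made with TPMCalculator, per the labels. Named in the submitters' processing notes, without role, are the build mm9, STAR 2.5.4a, R 3.5.1, Trimmomatic 0.36, DESeq2 1.22.2 and Trim Galore. Neither strandedness nor the gene models are given in the sources used here. Of the counts from 1 to 10, 61.2% were even, so single counts may not be single fragments, and the largest counts are rounded in the deposited table.

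Groups came from the sample titles. No replicate number is shared between groups. All genes were fitted with the edgeR 4.0.16 quasi-likelihood test in R 4.3.3 (default filter by group, minimum count 10 and minimum total 15; TMM; tissue as the only term), with Benjamini-Hochberg adjustment over 18027 genes. The standard error is the log2 fold change divided by the square root of F. Log2 CPM use a prior count of 2. Ratios added 0.5 to each count and were compared by exact two-sided permutation (Python 3.11.15). The fit was tested on simulated data. Alternatives were other scalings and filters, DESeq2 1.42.0, limma 3.58.1 voom, leaving out rows of histone genes, Rn45s and small non-coding RNA, and leaving out each library. Where this left a lone normal library, its spread was taken from the tumors.

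The factors and the 20 other gene lists were chosen with earlier results of these data known. Text names all 10 factors, their subfamily relatives, up to 3 genes per direction and list by smallest p, and 2 nearest profiles per factor. Not every such gene is described, and the result of 1 gene is not reported here. Sftpc, Epcam, Zfpm2 and Cebpe, and genes overlapping a factor, fall outside this rule and were chosen after their values were seen. Of 349 list entries 4 were not analysed here, and 2 matched by an older symbol. Promoter windows of 7 factors were used, and none of Foxj1, Foxp2 or Gata6. For each of the 7, the RefSeq start nearest a principal GENCODE transcript was used.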

Additional observations from a re-analysis of the deposited data

Results flagged for a closer look

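The values of the 10 factors, 4 ratios and 21 list sums in the 4 tumors were searched for a tumor whose gap to its nearest neighbor exceeded Dixon's 95% limit, which chance gives in about 1 in 20 groups. None of the 10 factors or 4 ratios exceeded it, and 4 list sums did. The general epithelial genes were at 1484 CPM in tumor 4, above the other tumors. The other epithelial transcription factors were lowest in tumor 3, at 249.8 CPM, against 450.5 to 462.8 in the other tumors. The neuroendocrine genes were highest in tumor 5, at 3071 CPM, against 2579 to 2633. The fibroblast genes were highest in tumor 6, at 1391 CPM, against 729 to 791. Their causes were not tested.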

How the results depend on the processing

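With 2 normal libraries the normal spread rests on 1 difference, and p-values measure the spread between these mice only. Each factor had at least 16 counts in every library, the fewest for Foxj1 in tumor 4. An effect of depth on the factors was not tested.

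Of the 10 factors, 5 were called, and 5 or 6 under every setting except without tumor 3, where 8 were. Over the libraries left out the range was 5 to 8. The log2 fold change of Nkx2-1 was -0.41 to 0.03 with 1 library left out, and above 0 only without tumor 4. The factors' other log2 fold changes kept their sign. Genes called over the whole table numbered 11512, and 7651 to 12079 with 1 library left out, the lowest without normal 1. Upper quartile scaling moved the median log2 fold change of all genes from 0.02 to 0.14. Of 560 list counts under an alternative, 529 stayed within 1.5 times the reported count (no calls in both included) and 31 did not. Of the latter, 13 came without a normal library. The general epithelial count of 3 lower became 11 with limma voom and 15 without tumor 4. The 4 ratio differences kept their direction without any 1 library and with 5 counts added. The cause of each change was not tested. No paired analysis was possible because the groups share no replicate number.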
